A study of Homo sapiens with 12 samples.

Results

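The response to knockdown of SLC25A1 was examined in MiaPaCa-2 (a long-established cell line from a human pancreatic cancer) as the difference between 3 libraries transfected with a small interfering RNA (siRNA) against SLC25A1 (siSLC25A1) and 3 libraries transfected with a control siRNA (siControl). These are 6 of the 12 libraries of the study, taken by their labels. The other 6 libraries, 3 with siRNA against ACLY (siACLY) and 3 with siRNA against ACO1 (siACO1), served as 2 further groups of the same line, against which a difference in siSLC25A1 could be held. All 4 groups share the line, the medium that its supplier recommends and siRNA transfection, so every comparison is between transfected cells. The labels do not say which siRNA sequences were used or how many, how long after transfection the RNA was taken, or whether nutrients were limited. A single cell line was used, and nothing in the labels says that replicates were grown separately, so p-values measure the spread between these samples, which may be technical.

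SLC25A1 encodes the carrier in the inner mitochondrial membrane that exports citrate to the cytosol in exchange for malate. Exported citrate is split by ATP citrate lyase (ACLY) to acetyl-CoA, the carbon source of fatty acid and sterol synthesis and of protein acetylation, or is turned by cytosolic aconitase (ACO1) into isocitrate, which isocitrate dehydrogenase IDH1 oxidises with the production of NADPH. Acetyl-CoA can also be made in the cytosol from acetate by ACSS2, and NADPH by the pentose phosphate pathway and the malic enzyme ME1. The series title places citrate transport in the protection of pancreatic cancer from ferroptosis, a death driven by iron-dependent lipid peroxidation.

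Totals ran from 24336768 to 29206149 counts in siSLC25A1 and from 28641881 to 36466251 in siControl. Log2 CPM of replicates correlated across genes with Pearson's r between 0.992 and 0.994, and every pair of replicates differed by more than sampling noise, with a chi-square per degree of freedom of 2.7 to 5.5. Levels are given as CPM, counts relative to the library total after scaling by trimmed mean of M values, so that they show proportions of the RNA, and a change in every cell and a larger one in some cells cannot be told apart. KRT8, KRT18, VIM, ZEB1 and SOX9 were expressed, while the epithelial markers EPCAM and CDH1 and the duct marker CFTR were at or near 0 in all 6 libraries, as were all acinar and islet markers. Of the 5 fibroblast markers COL1A2 was at 885 CPM in siControl and 807 CPM in siSLC25A1, and the other 4 were under 1 CPM. The 6 blood markers summed to 0.698 to 1.22 CPM in siControl and 1.65 to 1.99 CPM in siSLC25A1, nearly all of it LYZ, with PTPRC at 0 in every library.

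The target fell, and neither ACLY nor ACO1 was called. SLC25A1 (ENSG00000100075.10; chromosome 22, 19175575 to 19178830, minus strand, a protein-coding gene) was at 133, 135 and 134 CPM in the 3 siControl libraries and at 12.9, 10.5 and 11.7 CPM in the 3 siSLC25A1 libraries. The log2 fold change was -3.51 (SE 0.06, adjusted p 1.52e-26), and it stayed between -3.59 and -3.40 under every alternative tried. ACLY was at 496, 485 and 489.9 CPM in siSLC25A1 against 495, 493 and 507 CPM in siControl, and ACO1 at 42.2, 41.5 and 44.9 CPM against 44.4, 43.9 and 46.8 CPM, with adjusted p-values of 0.71 and 0.452.

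A broad set of small changes accompanied the knockdown. Of 16197 tested genes 3173 were called at an adjusted p under 0.05 (19.6%), 1672 higher (10.3%) and 1501 lower (9.27%). Most calls were small: their median size was 0.28 on the log2 scale, and 83.6% of them were of less than 1.5-fold. At least 2-fold changes were called for 170 genes (1.05%), 86 higher (0.531%) and 84 lower (0.519%). Against the same 3 siControl libraries, which all these comparisons share, 36.7% of tested genes were called in siACLY and 37.1% in siACO1. All 3 siSLC25A1 libraries lay above all 3 siControl libraries for 18.4% of tested genes and below them for 18.7%. Gene positions and overlaps between genes below come from GENCODE release 29 (GRCh38). Many gene IDs or versions in the count table are later than that release, so overlaps with genes added since are not seen here. Genes named for the size of their change were called, averaged 5 CPM or more in the group where they were higher, and had libraries of siSLC25A1 outside the range of siControl.

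**Figure D1:**
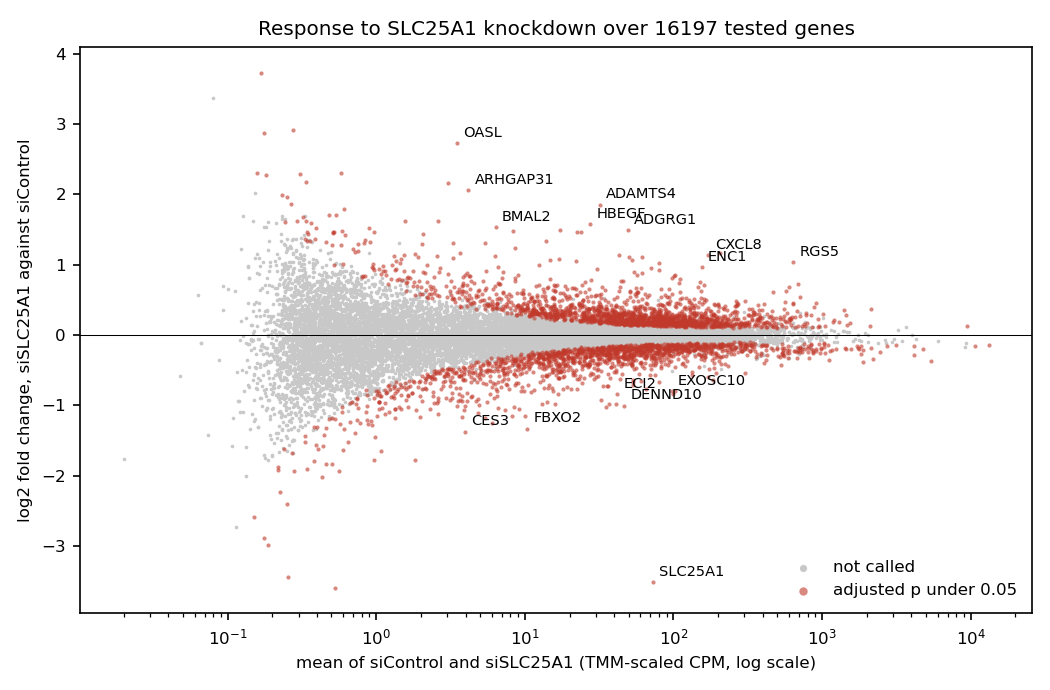
Log2 fold change of siSLC25A1 against siControl for each tested gene (points, vertical axis) against the mean level of both groups in CPM (horizontal log axis), with called genes in red. Most red points lie close to 0, and SLC25A1 stands alone at the bottom among genes above 1 CPM, at -3.51.

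The largest rise was that of OASL (ENSG00000135114.14; chromosome 12, 121019111 to 121039242, minus strand), a 2'-5' oligoadenylate synthetase-like protein of the antiviral response, from 1, 0.971 and 0.715 CPM to 5.51, 5.63 and 7.05 CPM (log2 fold change 2.73, SE 0.19, adjusted p 5.67e-12). ARHGAP31, which switches off the small GTPases CDC42 and RAC1, rose from 1.4, 1.64 and 1.82 to 6.98, 6.28 and 6.84 CPM (log2 fold change 2.06). ADAMTS4, a metalloprotease that cleaves aggrecan, went from 13, 14.5 and 13.8 to 41.4, 55 and 53.6 CPM (1.86), so its lowest siSLC25A1 library lay well above its highest control. HBEGF, a ligand of the EGF receptor, went from 14.2, 12.7 and 14.8 to 41, 41.5 and 41.7 CPM (1.57), with siSLC25A1 libraries that hardly differed from each other. BMAL2, DUSP5, ADGRG1, NGFR, WT1-AS, TXNIP, RIPK4 and EGR3 followed, with log2 fold changes between 1.31 and 1.54. The counts of NGFR and WT1-AS are uncertain, because 27.1% and 20.6% of their exon bases overlap another gene and the strand used in counting is not stated.

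Among genes with at least 100 CPM, the largest rises were those of FERMT1, CXCL8, RGS5, EGR1, ENC1 and PORCN. FERMT1, the integrin activator kindlin-1, was at 129.7, 123 and 131 CPM in siControl and 282, 290.2 and 288 CPM in siSLC25A1 (log2 fold change 1.16, SE 0.05, adjusted p 4.91e-17). CXCL8, the chemokine interleukin-8, went from 114, 104 and 105 to 236, 235 and 239 CPM (1.13). RGS5, a regulator of G protein signalling, was the most abundant of the 6 and went from 427, 413 and 417 to 906, 820.1 and 844 CPM (1.03). PORCN, the enzyme that acylates Wnt ligands, rose by 0.92 on the log2 scale.

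The largest falls were in genes at low to middle levels. CES3, a carboxylesterase, fell from 5, 6.97 and 5.04 CPM to 2.02, 2.21 and 2.36 CPM (log2 fold change -1.37, SE 0.16, adjusted p 1.12e-07). FBXO2, the glycoprotein-binding subunit of an SCF ubiquitin ligase, fell from 14, 14.5 and 16.1 to 5.37, 5.27 and 7.09 CPM (-1.33). FBXO44, another F-box gene whose start overlaps the start of FBXO2 on the opposite strand (FBXO2 ENSG00000116661.11; chromosome 1, 11637018 to 11655785, minus strand; FBXO44 ENSG00000132879.14; chromosome 1, 11654375 to 11663327, plus strand), fell from 54.5, 52.1 and 52.2 to 34.1, 33.5 and 34.9 CPM (-0.63, adjusted p 6.99e-10). In the 2 genes 7.82% and 7.57% of exon bases overlap another gene. MATK, FRRS1, CA11, SEMA3B, SMAD6, IFITM10, SYTL1, ANXA9, CRIP2 and SZRD1 had log2 fold changes between -1.25 and -1.04. FRRS1 encodes a ferric-chelate reductase and went from 7.51, 8.57 and 6.36 to 2.89, 2.9 and 4.19 CPM.

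Among abundant genes the largest falls included those of LINC03061 (-0.83), IGFBP6 (-0.80), EXOSC10 (-0.79), SEMA6B (-0.64) and TFDP1 (-0.60). EXOSC10, the nuclear exosome's RNase, was at 124, 123 and 123 CPM in siControl and 73.9, 72.8 and 67.2 CPM in siSLC25A1. TFDP1, the dimer partner of the E2F factors, was at 208, 206 and 208 against 145, 133 and 132 CPM. The counts of EXOSC10 and IFITM10 are uncertain, with 39.3% and 22.2% of exon bases shared with another gene.

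To find which differences held against the other knockdowns too, siSLC25A1 was required to lie on the same side of siControl, siACLY and siACO1, with the largest of the 3 p-values adjusted over all genes. This joint test called 551 genes (3.40%), 328 above the 3 other groups (2.03%) and 223 below (1.38%). The split turned with the scaling: with library totals alone it was 247 above and 266 below. The smallest of the 3 log2 differences, which is the value given for this test, had a median of 0.26 among genes above and -0.36 among genes below. It was at least 1 for 3 genes above (BMAL2, ADGRG1 and SOCS2, the last chosen after its value was seen) and at most -1 for 16 below, the target among them. Without siACO1 replicate 3, which stood apart from its replicates on the fourth principal component with a score of 27.1 against -15.1 and -10.7, the joint test called 756 genes. Each target had a single siRNA group. Loss of SLC25A1 and unintended effects of its siRNA on other transcripts therefore cannot be told apart in any of these comparisons.

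**Figure D2:**
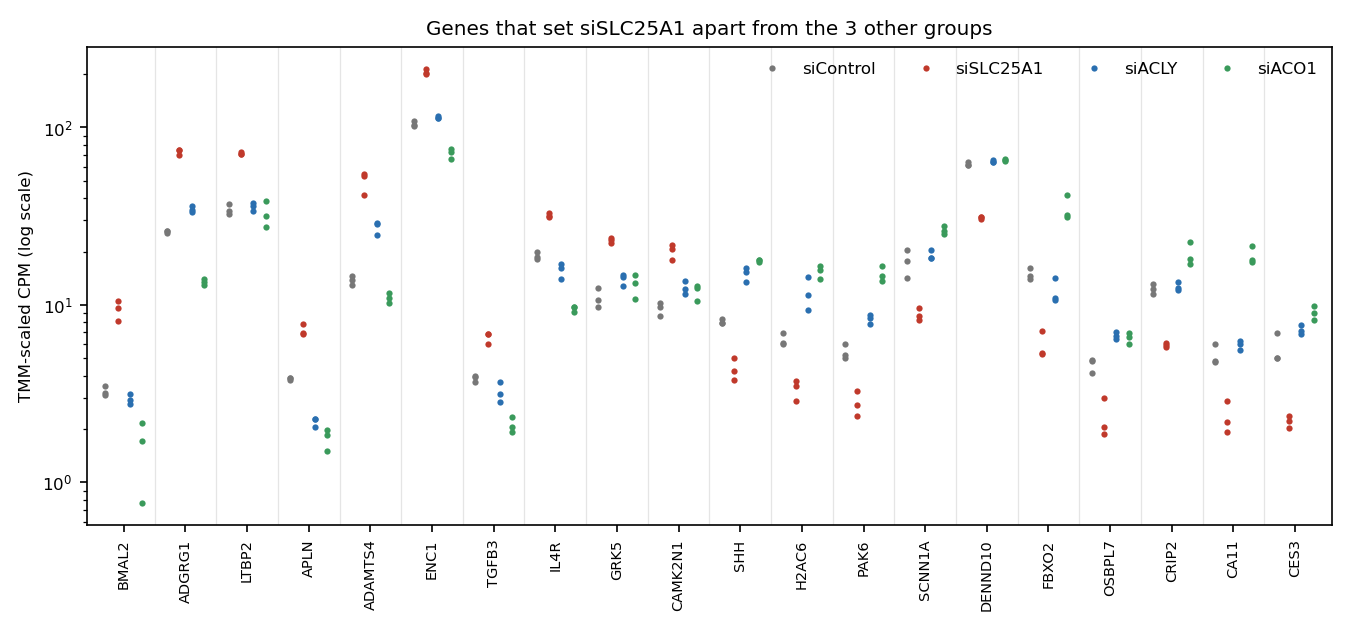
Level in CPM (vertical log axis), in all 12 libraries, of the 10 genes furthest above and the 10 furthest below the other groups among genes called by the joint test that averaged 5 CPM or more in their highest group, other than the target (points, coloured by group). For each of the 20 genes the 3 siSLC25A1 points lie on 1 side of the 9 others.

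Of genes averaging 5 CPM or more in their highest group, BMAL2, a PAS-domain transcription factor that pairs with CLOCK, was furthest above. It was at 10.6, 9.66 and 8.12 CPM in siSLC25A1, against 3.49, 3.11 and 3.18 CPM in siControl, 3.15, 2.91 and 2.78 CPM in siACLY and 0.765, 1.72 and 2.15 CPM in siACO1 (smallest difference 1.54, adjusted joint p 5.07e-07). ADGRG1, an adhesion G protein-coupled receptor (ENSG00000205336.14; chromosome 16, 57610652 to 57665580, plus strand), was at 70.1, 74.2 and 74.7 CPM against 26, 26.1 and 25.6 CPM in siControl, 33.5, 34.2 and 36 CPM in siACLY and 13.9, 12.9 and 13.5 CPM in siACO1 (1.08, adjusted joint p 1.4e-14). LTBP2, of the family that binds latent TGF-beta, was at 70.6, 71.3 and 72.8 CPM and between 32.7 and 35.8 CPM on average in the other groups (0.99). The other 7 were APLN, the ligand of the apelin receptor (0.91), ADAMTS4 (0.87), the actin-binding Kelch protein ENC1 (0.85), TGFB3 (0.77), the interleukin-4 receptor IL4R (0.76), the receptor kinase GRK5 (0.73) and CAMK2N1, an inhibitor of CaMKII (0.69).

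At the same level limit CES3 was furthest below other than the target, at 2.02, 2.21 and 2.36 CPM against 7.69, 6.87 and 7.09 CPM in siACLY and 9.06, 9.82 and 8.22 CPM in siACO1 (smallest difference -1.37, adjusted joint p 4.96e-07). DENND10 was the most abundant of these, at 31.2, 30.4 and 31.3 CPM against 61.3, 63.5 and 61.7 CPM in siControl, with 63.9, 65.6 and 63.7 CPM in siACLY and 65.7, 64.3 and 66.1 CPM in siACO1 (-1.01, adjusted joint p 1.11e-14). The 9 libraries of the other groups were close together for DENND10, and 24.9% of its 31-base stretches also occur in transcripts of genes elsewhere, so its count is uncertain. CA11 (-1.17), the LIM protein CRIP2 (-1.05), the oxysterol-binding protein family member OSBPL7 (-1.01) and FBXO2 (-1.01) were also at least 2-fold below. SCNN1A, a subunit of the epithelial sodium channel, PAK6, the histone gene H2AC6 and the ligand SHH lay between -0.98 and -0.89. FBXO2, CA11 and PAK6 were higher than siControl in siACO1, by 1.24, 1.86 and 1.47 on the log2 scale, and PAK6 shares 44.1% of its exon bases with another gene.

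Of the genes that supply citrate in the mitochondrion, some fell and none was called higher. Of 17 tested members of that list, 6 were called lower and 0 higher, where 9.27% and 10.3% of all genes were, with a median log2 fold change of -0.08 beside -0.00 over all genes. DLD, the dihydrolipoamide dehydrogenase that pyruvate and 2-oxoglutarate dehydrogenase share, was at 167, 169.5 and 173 CPM in siControl and 139, 137 and 139.8 CPM in siSLC25A1 (log2 fold change -0.30, SE 0.04, adjusted p 2.93e-06). It was also below siACLY and siACO1 (smallest difference -0.21, adjusted joint p 0.00158). CS, citrate synthase, was at 282, 269 and 270.5 CPM against 253, 236 and 237 CPM (-0.18, adjusted p 0.00186), and was called lower in siACLY and siACO1 too (-0.18 and -0.25). PDHA1, DLAT and PDP2, of the pyruvate dehydrogenase complex and its phosphatase, had log2 fold changes of -0.14, -0.12 and -0.18.

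These last 3 calls were small enough to depend on single libraries. That of DLAT was lost without any siControl library or without siSLC25A1 replicate 2 or 3 (-0.13 to -0.11), that of PDP2 without siControl replicate 2 or 3 or siSLC25A1 replicate 1 or 2 (-0.17 to -0.15), and that of PDHA1 without siControl replicate 1 or siSLC25A1 replicate 2 or 3 (-0.13). Without siSLC25A1 replicate 2 the list held 3 genes called lower and 1 higher, and without siSLC25A1 replicate 3 its median was -0.03. The mitochondrial pyruvate carrier genes MPC1 and MPC2, pyruvate carboxylase PC, PDHB, PDHX, the kinases PDK1, PDK2, PDK3 and PDK4 and PDP1 and PDPR were not called, with adjusted p-values of 0.145 or more. The counts of PDHA1, MPC2, PDK2 and PDPR are uncertain, because of exons or sequence shared with other genes.

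**Figure D3:**
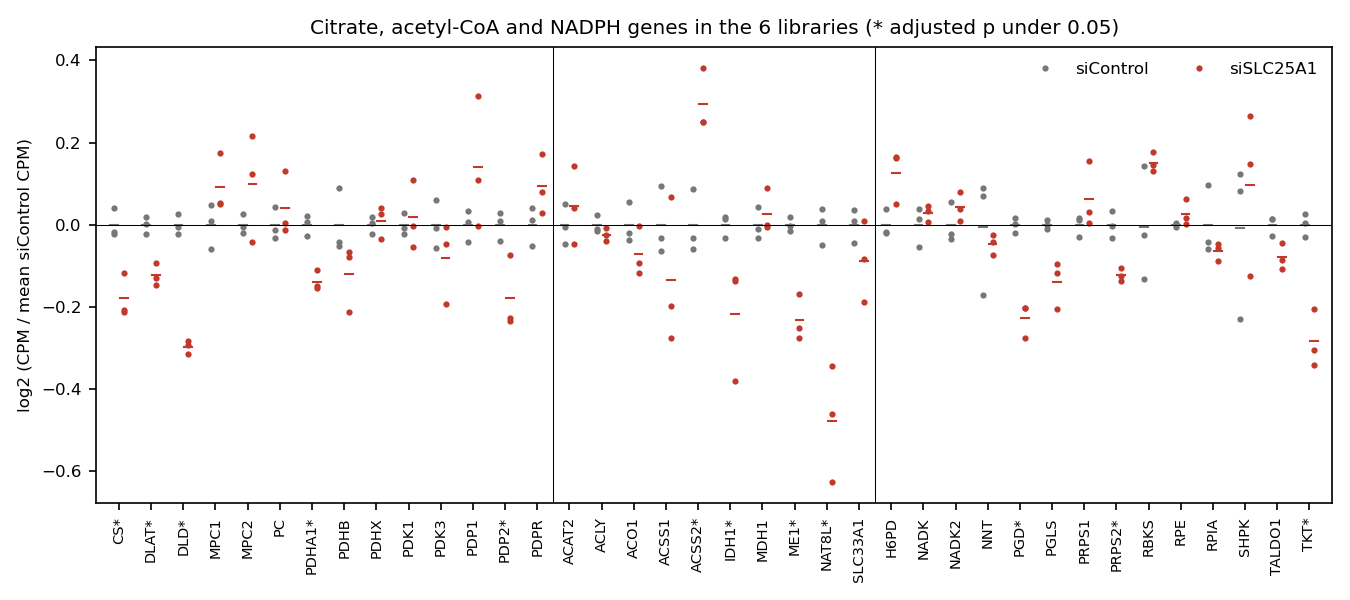
Level of each gene in each library relative to the siControl mean (log2, vertical axis) for the lists of citrate production, cytosolic citrate and acetyl-CoA use, and pentose phosphate pathway and NADPH, separated by vertical lines, for genes reported here with at least 5 CPM in siControl. Points are libraries, bars group means; DLD, NAT8L and TKT lie lowest and ACSS2 highest among called genes.

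Of 10 tested genes listed for the use of cytosolic citrate and acetyl-CoA, 1 was called higher and 3 lower, where 10.3% of all tested genes were called higher and 9.27% lower. The list also holds ACSS1, the mitochondrial acetyl-CoA synthetase. ACSS2, which makes acetyl-CoA from acetate, rose from 21.8, 21.4 and 23.7 to 26.5, 26.6 and 29.1 CPM (log2 fold change 0.30, SE 0.07, adjusted p 0.00159). It was higher in siACLY as well, at 31.5 CPM on average (0.50, adjusted p 4.38e-07), and at 22.8 CPM in siACO1. NAT8L, which makes N-acetylaspartate from acetyl-CoA, fell most, from 65.5, 66.8 and 62.9 to 42.2, 47.3 and 51.3 CPM (-0.48, adjusted p 6.47e-07). ME1, the cytosolic malic enzyme, fell from 52, 51.6 and 52.8 to 43.1, 46.4 and 43.8 CPM (-0.23, adjusted p 0.00144). IDH1 fell from 132, 137 and 136 to 104, 123 and 123 CPM (-0.21, adjusted p 0.00359) and was below the 3 other groups (smallest difference -0.21, adjusted joint p 0.014). That joint call was lost without siControl replicate 2 (-0.20) or 3 (-0.21) or siSLC25A1 replicate 1 (-0.13), and the siSLC25A1 libraries of IDH1 did not overlap the controls. MDH1, SLC33A1, ACAT2 and ACSS1 were not called, with adjusted p-values of 0.262 or more, and the counts of SLC33A1 and ACAT2 are uncertain through overlap with other genes.

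The pentose phosphate pathway and other sources of NADPH include genes that fell. Of 15 tested members 4 were called lower and 0 higher, where 9.27% and 10.3% of all tested genes were. PGD, a dehydrogenase of the pathway, fell from 317, 314 and 309 to 272, 259 and 272 CPM (log2 fold change -0.23, adjusted p 2.98e-04), and TKT, transketolase, from 474, 456 and 467 to 404, 367 and 377 CPM (-0.28, adjusted p 8.91e-06). PGD was below all 3 groups (adjusted joint p 0.0157), a call lost without siSLC25A1 replicate 2 (-0.15) or 3 (-0.18) or any siACLY library (-0.18 to -0.16) and with offsets for length and GC (-0.12); TKT averaged 381 CPM in siACLY and 384 CPM in siACO1. In glycolysis 4 of 25 genes were called higher and 5 lower. HK2, hexokinase 2, rose from 173, 161 and 174 to 225, 238 and 228 CPM (0.45, adjusted p 1.5e-08) and was above siACLY and siACO1 (smallest difference 0.40, adjusted joint p 4.64e-07), whereas the low-level aldolase gene ALDOC was below all 3 groups (-0.77).

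Among the mitochondrial carriers of the SLC25 family, 2 of 41 other tested genes were called higher and 6 lower, beside 10.3% and 9.27% of all tested genes. SLC25A20, the carnitine-acylcarnitine carrier that takes fatty acyl groups into the matrix, was at 8.99, 9.55 and 9.36 CPM in siControl and 7.01, 6.68 and 5.84 CPM in siSLC25A1 (log2 fold change -0.51, adjusted p 0.00141). It was the 1 carrier below all 3 groups (-0.51, adjusted joint p 0.00586), where 1.38% of all tested genes were. That call was lost without siSLC25A1 replicate 3 (-0.44). SLC25A13, the aspartate-glutamate carrier citrin, rose by 0.29, and the glutamate carrier SLC25A22 and the glutathione carrier SLC25A39 had log2 fold changes of -0.24 and -0.18; the last 3 were chosen after their values were seen.

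Fatty acid oxidation supplies acetyl-CoA inside the mitochondrion. Of 28 tested members 5 were called lower and 2 higher, beside 9.27% and 10.3% of all tested genes. ECI2, an isomerase for unsaturated acyl-CoA, fell from 55, 53.6 and 53 to 31.4, 31.5 and 27.4 CPM (log2 fold change -0.84, SE 0.06, adjusted p 8.78e-12), below siACLY (48.4, 50.4 and 47.3 CPM) and siACO1 (59.2, 65.2 and 66.3 CPM) too. The count of ECI2 is uncertain, with 29.8% of its exon bases shared with another gene. ECHS1, the short-chain enoyl-CoA hydratase, fell from 252, 261 and 253 to 199.9, 184 and 189.9 CPM (-0.42, adjusted p 2.61e-08). CPT1A, the carnitine palmitoyltransferase that controls entry of fatty acids, had a log2 fold change of -0.24, and SLC22A5, the carnitine importer, of -0.36 (both chosen after their values were seen). The 2 genes called higher, ACADVL (0.15) and DECR1 (0.23), also named after the fact, lost their calls without siControl replicate 3, and also without siControl replicate 2 or siSLC25A1 replicate 3 for ACADVL and without siSLC25A1 replicate 1 for DECR1 (0.12 to 0.14 and 0.20 to 0.21).

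Fatty acid and sterol synthesis, which draw on cytosolic acetyl-CoA, had calls in both directions. In fatty acid synthesis 1 of 23 genes was called higher and 4 lower, beside 10.3% and 9.27% of all tested genes (median -0.10 beside -0.00). SCD, the stearoyl-CoA desaturase, fell from 684, 803 and 760.2 to 535, 644 and 616 CPM (log2 fold change -0.32, adjusted p 6.67e-04), and was at 481 CPM in siACLY and 569.8 CPM in siACO1. MLXIPL, the carbohydrate-responsive factor ChREBP, fell from 10.7, 11.3 and 11 to 5.65, 7.49 and 7.46 CPM (-0.69, adjusted p 4.3e-05). SREBF1, the sterol-regulated factor of lipid synthesis, fell from 218, 243 and 239 to 175, 198 and 188 CPM (-0.32, adjusted p 8.18e-06).

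In sterol synthesis and uptake 6 of 28 genes were called higher and 6 lower, and the list's median was -0.02 in siSLC25A1, 0.21 in siACLY and 0.10 in siACO1. DHCR7, the last reductase of cholesterol synthesis, was lower than in both other knockdowns. It was at 49.1, 49.8 and 57.8 CPM in siSLC25A1, at 70.3, 65.6 and 68.6 CPM in siControl, at 92.6, 99 and 97.5 CPM in siACLY and at 83.8, 83.1 and 94.5 CPM in siACO1 (smallest difference -0.38, adjusted joint p 8.22e-05). TM7SF2, a sterol reductase earlier in the pathway, was too, at 10.5, 10.3 and 11.4 CPM against means of 14.3, 18 and 19.6 CPM in siControl, siACLY and siACO1 (-0.41, adjusted joint p 0.0058). The cholesterol exporter of lysosomes NPC1 rose by 0.31 (chosen after its value was seen).

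Sphingolipid genes had 10 of 33 called higher and 3 lower, where 10.3% of all tested genes were called higher and 9.27% lower. Their median of 0.09 was 0.04 without siControl replicate 3 or siSLC25A1 replicate 3, 0.14 without siControl replicate 2 and 0.15 without siSLC25A1 replicate 1, and 1 gene was called lower without siSLC25A1 replicate 3. SMPD1, acid sphingomyelinase, rose from 25.9, 29.2 and 26.2 to 35.1, 39.2 and 36 CPM (log2 fold change 0.44, adjusted p 8.19e-06), and SPHK1, which makes sphingosine 1-phosphate, from 12.9, 11.9 and 12 to 17.9, 16.1 and 15.1 CPM (0.42). CERS4, a ceramide synthase, fell from 13.2, 14.8 and 15.4 to 10.3, 11.1 and 11.4 CPM (-0.40). In glycerolipid and phospholipid synthesis 3 of 39 were called higher and 7 lower; 4 were lower without siControl replicate 1 or siSLC25A1 replicate 1, and 1 was higher without siSLC25A1 replicate 2 and 5 without siACO1 replicate 3. LPCAT3, which puts polyunsaturated acyl chains into phospholipids, had a log2 fold change of -0.52 with an uncertain count (65.6% of exon bases shared).

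The hexosamine pathway, which makes UDP-GlcNAc from fructose 6-phosphate and acetyl-CoA, had calls in both directions: 6 of 20 members were called higher and 7 lower, beside 10.3% and 9.27% of all tested genes. GFPT1, its first enzyme, rose from 90, 88.4 and 92.5 to 107, 141 and 123 CPM (log2 fold change 0.46, adjusted p 0.00104). GNE, which diverts UDP-GlcNAc to sialic acid, fell from 157, 157 and 158 to 108, 102 and 117 CPM (-0.53, SE 0.05, adjusted p 1.57e-09) and was below siACLY (138, 135 and 139 CPM) and siACO1 (209, 209 and 231 CPM; smallest difference -0.33, adjusted joint p 2.38e-05). Leaving out siControl replicate 2 brought the genes called lower to 4, and leaving out siSLC25A1 replicate 1 to 3.

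Most genes of protein folding in the endoplasmic reticulum (ER) on the list rose. Misfolded protein in the ER activates the sensors IRE1, PERK and ATF6, and the factors XBP1 and ATF6 then act on the ER stress element, a CCAAT box and a CCACG separated by 9 bases, in the promoters of chaperone genes. Of 26 tested members 18 were called higher and 0 lower, against 10.3% and 9.27% of all genes. The list's median was 0.22 in siSLC25A1, 0.02 in siACLY and 0.03 in siACO1. A promoter of 300 bases, from 250 before to 50 after the start of the gene, was held by RefSeq (GRCh38.p14) for 24 of the 26 members, and 6 of the 24 had that element (CCAAT, any 9 bases, CCACG) on either strand, as had 0.131% of the 10678 tested genes with such a promoter (0.0769% of all 35116 promoters). The 0.131% stands for 14 genes, the 6 members among them. The sequences below show the element in called and uncalled members, in 5′ to 3′ direction on the gene's strand, with the CCAAT and CCACG parts, or their complements, in capitals.
XBP1, GRCh38.p14, chromosome 22, 28800598 to 28800626, minus strand: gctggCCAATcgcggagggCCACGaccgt
HSPA5, chromosome 9, 125241386 to 125241414, minus strand: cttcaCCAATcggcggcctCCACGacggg
HSP90B1, chromosome 12, 103930211 to 103930239, plus strand: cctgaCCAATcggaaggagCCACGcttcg
CALR, chromosome 19, 12938379 to 12938407, plus strand, element on the other strand: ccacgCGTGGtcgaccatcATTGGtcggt
CANX, chromosome 5, 179698773 to 179698801, plus strand: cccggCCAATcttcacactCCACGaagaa
CRELD2, chromosome 22, 49918549 to 49918577, plus strand, element on the other strand: cctctCGTGGcgaactcggATTGGgccat

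Of the 6 genes with the element 4 were called higher, a share close to that of the whole list (18 of 26). XBP1, the factor spliced by IRE1, was at 137, 126 and 134 CPM in siControl and 177, 202 and 189 CPM in siSLC25A1 (log2 fold change 0.52, SE 0.06, adjusted p 4.3e-07). HSPA5, the ER chaperone BiP, was at 1244, 1209 and 1237 and 1358, 1746 and 1631 CPM (0.36, adjusted p 0.00122), and CALR, the lectin chaperone calreticulin, at 1143, 1101 and 1125 and 1152, 1383 and 1353 CPM (0.21, adjusted p 0.00423). HSP90B1, the ER form of HSP90, had 0.19 (adjusted p 0.00393), a call lost without siSLC25A1 replicate 2 (0.13). CRELD2 and CANX, calnexin, were not called, with log2 fold changes of 0.07 and -0.07. The count of CANX is uncertain: at 14, 16.6 and 16 CPM in siControl it lay far below that of CALR, its partner in the same folding cycle. HSPA5, CALR, HSP90B1, CANX and CRELD2 were named for the element, which was searched after their values had been seen.

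The largest changes of the list were those of MANF, a secreted ER stress protein, from 46.2, 41.7 and 45.9 to 54.5, 79.1 and 71.4 CPM (log2 fold change 0.61, SE 0.13, adjusted p 0.00819), and of HERPUD1, a part of the degradation machinery of the ER, from 88, 87.8 and 85 to 116, 149 and 134 CPM (0.61, SE 0.08, adjusted p 3.87e-05). In both genes, and in HSPA5 and CALR, siSLC25A1 replicate 1 was the lowest of its group and replicate 2 the highest. By the joint test 6 members were above all 3 groups and 0 below, where 2.03% and 1.38% of all tested genes were. DNAJC3, a co-chaperone that inhibits PERK, was at 46, 53.8 and 54.6 CPM against means of 39.1, 40.2 and 36.9 CPM in siControl, siACLY and siACO1 (smallest difference 0.36, adjusted joint p 2.79e-04), and SYVN1, the ubiquitin ligase of ER-associated degradation, at 82.2, 90.1 and 90.9 CPM against 70.1, 66.6 and 73.7 CPM (0.25, adjusted joint p 9.73e-04). DNAJC3 and SYVN1 were chosen after their values were seen. Without siSLC25A1 replicate 1 the joint test called 11 members of the list, and without replicate 2 it called 2. Cytosolic heat shock chaperones had 0 of 21 called higher and 5 lower, beside 10.3% and 9.27% of all tested genes. There were 3 lower without siSLC25A1 replicate 2, 8 without siSLC25A1 replicate 1 and 9 without siACO1 replicate 3. The median of these chaperones was -0.07 in siSLC25A1, -0.12 in siACLY and -0.18 in siACO1. Their largest fall was that of HSP90AA1, from 2475, 2425 and 2446 to 2193, 1806 and 1812 CPM (-0.34), whose count is uncertain through shared sequence.

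Amino acid transporters were called higher in 8 of 24 cases and lower in 0, where 10.3% and 9.27% of all tested genes were, with a median of 0.14 in siSLC25A1, 0.16 in siACLY and -0.04 in siACO1. SLC1A4, a neutral amino acid exchanger, rose from 46, 42.1 and 43.7 to 57.1, 72.7 and 67.7 CPM (log2 fold change 0.58, adjusted p 4.98e-07), and rose in siACLY as well (71.2 CPM). SLC7A11, the cystine importer that feeds glutathione synthesis, was at 52, 49 and 50.2 CPM in siControl and 61.4, 71.4 and 63.7 CPM in siSLC25A1 (0.38, SE 0.06, adjusted p 2.5e-05), with 56.4 and 37.2 CPM in siACLY and siACO1. TXNRD1, the cytosolic thioredoxin reductase, rose from 559.7, 518 and 542 to 728, 750.3 and 753 CPM (0.46, adjusted p 2.68e-10) and was above both other knockdowns (562 and 368 CPM; smallest difference 0.40, adjusted joint p 2.16e-08). The wider list of ferroptosis defence and glutathione had 7 of 26 members higher and 6 lower. Serine and folate one-carbon enzymes had 7 of 25 higher and 1 lower, among the former MTR, methionine synthase (0.34), while AHCY, which clears S-adenosylhomocysteine, fell from 642, 659 and 678 to 526, 521 and 528 CPM (-0.33, adjusted p 1.19e-07). AARS1, the alanyl-tRNA synthetase, was above all 3 groups, at 806, 889 and 907 CPM against means of 701, 699 and 619.6 CPM (0.31, adjusted joint p 1.76e-05), as was UPP1, uridine phosphorylase, at 27.1, 33.8 and 29.8 against 18.5, 18.9 and 8.64 CPM (0.68). Aminoacyl-tRNA synthetases as a list had 2 of 33 called higher and 5 lower (median -0.00). By the joint test 1 of them was above and 1 below all 3 groups.

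Many ribosomal protein genes fell, each by little. Of 75 tested genes of cytosolic ribosomal proteins, 43 were called lower and 2 higher, beside 9.27% and 10.3% of all tested genes, 70 had a log2 fold change below 0, and the median was -0.20. RPS16 was at 910.4, 888 and 914 CPM in siControl and 720.1, 753 and 696 CPM in siSLC25A1 (log2 fold change -0.32, SE 0.05, adjusted p 3.5e-05). The list's median was -0.13 in siACLY and -0.18 in siACO1. Its mean level, as log2(CPM + 0.5) relative to siControl, was -0.27, -0.26 and -0.02 in siACO1 replicates 1, 2 and 3. It was -0.19, -0.16 and -0.22 in siSLC25A1 and -0.15, -0.14 and -0.06 in siACLY. Single libraries bore on the count of genes called lower, which ran from 24 to 59 when 1 was left out. It was 28 without siControl replicate 1, 24 without siSLC25A1 replicate 1 and 27 without siSLC25A1 replicate 3. Host genes of small nucleolar RNAs had 0 of 25 higher and 8 lower (median -0.13; 2 lower without siControl replicate 1 and 4 without siSLC25A1 replicate 3), among them SNHG30, from 18.3, 19.1 and 19.1 to 15.5, 12.7 and 13.3 CPM (-0.44). Ribosome biogenesis factors had 6 of 54 higher and 5 lower, shares of 11.1% and 9.26% that are close to those of all tested genes, and single libraries moved them to 2 (siControl replicate 2) or 3 (siControl replicate 3, siSLC25A1 replicate 1 or 3) higher and 10 lower (siACO1 replicate 3). UBTF, a factor of ribosomal RNA transcription, had a log2 fold change of -0.34 and UTP20 rose by 0.27.

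Transcript length moved with these results. Over 15376 genes with a known length, the median log2 fold change was -0.07 among the 3076 shortest transcripts, of up to 1336 bases, and 0.04 among the 3075 longest, of at least 4898 bases. Of these shortest 2.76% were called higher and 7.9% lower, and of the longest 18% and 9.2%. Across genes (not independent of each other) Spearman's rho of the fold change was 0.135 with length and -0.154 with GC content in siSLC25A1, and -0.117 and -0.021 in siACO1. The ribosomal protein transcripts had a median length of 1071 bases. With offsets for length and GC in the fit, an alternative added after the data were seen, 36 of the ribosomal protein genes were called lower, the list's median was -0.16, and 3335 genes in all were called. The part of length in these falls was not tested beyond this fit.

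**Figure D4:**
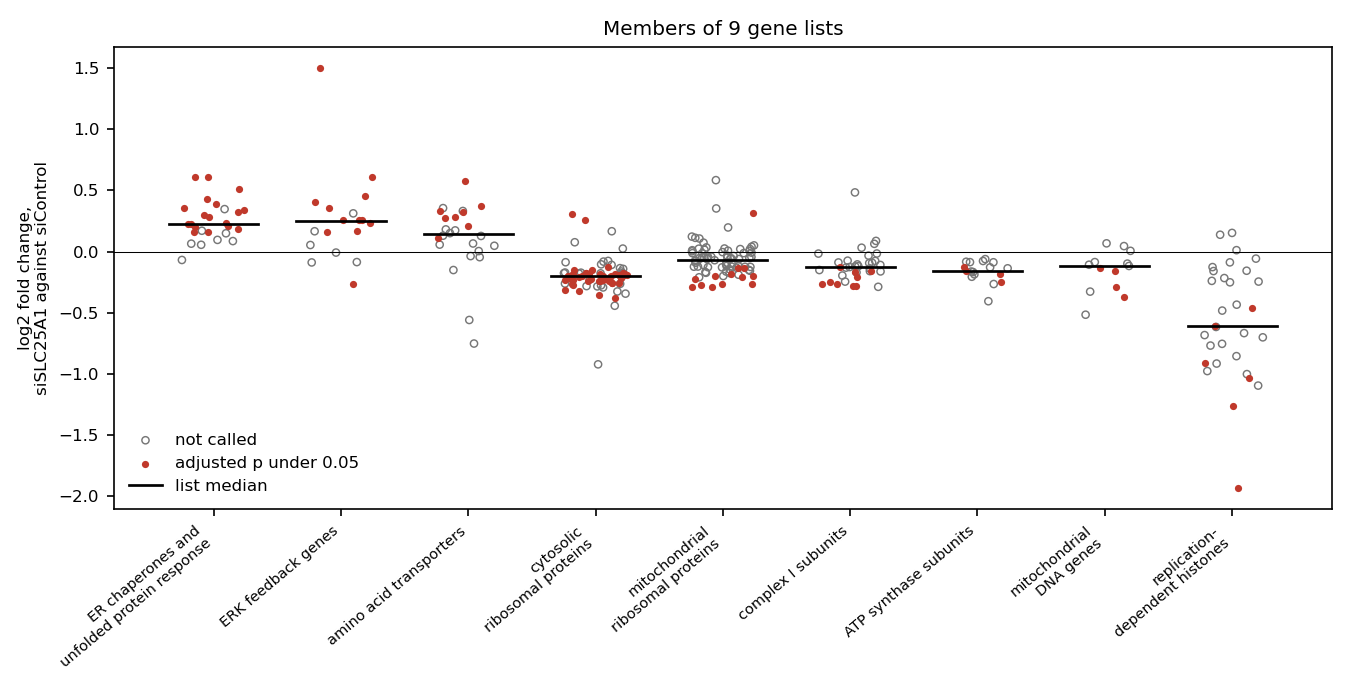
Log2 fold change of siSLC25A1 against siControl (vertical axis) for every tested member of 9 gene lists (points; red where called, bars the list medians). Members of the ER chaperone, ERK feedback and amino acid transporter lists lie mostly above 0, and ribosomal proteins, complex I, ATP synthase, mitochondrial DNA genes and histones mostly below.

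In the lists of the respiratory chain no gene was called higher, where 10.3% of all tested genes were called higher and 9.27% lower. Among the 3076 genes with the shortest transcripts these shares were 2.76% and 7.9%. The part of transcript length in the mitochondrial lists was not tested. Of 35 tested complex I subunits 9 were called lower (median -0.13), and all 17 ATP synthase subunits had a log2 fold change below 0, with 4 called (median -0.16). Of 25 subunits of complexes III and IV, 2 were called lower, a share of 8% below that of all tested genes (median -0.11). NDUFA5 was at 56.3, 58 and 53.1 CPM in siControl and 46, 44.6 and 47.2 CPM in siSLC25A1 (log2 fold change -0.28, SE 0.05, adjusted p 1.85e-04), and NDUFA8 at 83.3, 82.2 and 83.3 and 72.6, 66.3 and 67.9 CPM (-0.27). Of the 13 genes of mitochondrial DNA 4 were called lower and 0 higher. MT-CO3, a subunit of complex IV, was at 5969, 6090.3 and 6337 CPM in siControl and 4678, 4986 and 4552 CPM in siSLC25A1 (-0.37, adjusted p 2.62e-05), and its count is uncertain, since 45% of its 31-base stretches also occur in transcripts of other genes. Mitochondrial genes held 5.71% to 6.43% of the counts in siSLC25A1 and 6.36% to 6.75% in siControl, ranges that overlap. The medians of complex I and ATP synthase were -0.16 and -0.19 in siACLY and -0.00 and -0.06 in siACO1, against the same controls. The siACO1 libraries differed. The mean level of complex I, as log2(CPM + 0.5) relative to siControl, was -0.11, -0.07 and 0.08 in siACO1 replicates 1, 2 and 3. In siSLC25A1 it was -0.11, -0.10 and -0.13. For ATP synthase these values were -0.18, -0.18 and 0.10 in siACO1 and -0.13, -0.15 and -0.21 in siSLC25A1. Without siACO1 replicate 3, 15 complex I, 11 complex III and IV, 11 ATP synthase and 7 mitochondrial DNA genes were called lower, and leaving out single siControl or siSLC25A1 libraries brought the last 3 counts to as few as 0, 1 and 2. Mitochondrial ribosomal proteins had 1 of 80 higher and 12 lower, with 27 lower without siACO1 replicate 3 and as few as 5 without other single libraries. In iron-sulfur cluster assembly, 4 of 25 were lower and 0 higher.

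Among immediate early genes and the feedback genes of the ERK pathway, more members rose than fell. Growth factor receptors act through RAS and ERK, which induce transcription factors of the FOS, JUN and EGR families within minutes and, with a delay, phosphatases and Sprouty proteins that damp the signal. Of 25 tested immediate early genes 12 were called higher and 2 lower (median 0.24), and of 18 feedback genes 11 higher and 1 lower (median 0.25), where 10.3% and 9.27% of all tested genes were and the median was -0.00. The 2 medians were 0.43 and 0.17 in siACLY and 0.15 and 0.10 in siACO1. As mean log2(CPM + 0.5) relative to siControl, immediate early genes were at 0.28 to 0.35 in siSLC25A1, 0.59 to 0.64 in siACLY and 0.57 to 0.62 in siACO1. Feedback genes were at 0.21 to 0.28, 0.27 to 0.30 and 0.07 to 0.08. EGR1, a zinc finger factor of this family, was at 53.9, 58.9 and 44.2 CPM in siControl and 103, 116 and 102 CPM in siSLC25A1 (log2 fold change 1.03, adjusted p 2.92e-06), with 167, 180.3 and 164 CPM in siACLY and 215, 224 and 203 CPM in siACO1. Its promoter is shown for its CArG boxes, the sites of serum response factor, in capitals; 0.955% of the 10678 promoters of tested genes held a CArG box, as did 2 of the 20 immediate early genes with a promoter entry, EGR1 and SRF, and SRF was not called.
EGR1, chromosome 5, 138465369 to 138465388, plus strand: tcctgCCATATTAGGgcttc
EGR1, chromosome 5, 138465391 to 138465410, plus strand: gcttcCCATATATGGccatg
FOSB went from 1.03, 1.33 and 0.929 CPM to 5.68, 5.47 and 3.69 CPM (2.16, SE 0.24, adjusted p 4.89e-06), from a level near 1 CPM, and EGR3 from 2.82, 3.16 and 3.32 to 7.74, 8.85 and 6.43 CPM (1.31). DUSP5, a nuclear phosphatase of ERK, went from 8.88, 8.24 and 9.9 to 24.5, 25.7 and 26 CPM (1.5, SE 0.08, adjusted p 4e-14), with 18.7, 20.3 and 20.8 CPM in siACLY and 11.1, 10 and 11.3 CPM in siACO1 (smallest difference 0.35, adjusted joint p 0.00432). DUSP7, a cytoplasmic phosphatase of ERK, went from 113, 105 and 113 to 148, 153 and 152 CPM (0.45) and was above all 3 groups (0.45, adjusted joint p 3.09e-08). BTG2 was below siControl (-0.53) and PHLDA1 below all 3 groups (-0.26), both named after their values were seen.

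TGF-beta ligands are held latent in the matrix by binding proteins and are countered by inhibitors inside the cell. Of 28 tested members of this pathway's list 8 were called higher and 7 lower, beside 10.3% and 9.27% of all tested genes. By the joint test 5 were above and 2 below all 3 other groups, beside 2.03% and 1.38% of all tested genes. TGFB3 was at 3.94, 3.69 and 3.97 CPM in siControl and 6.84, 6.04 and 6.84 CPM in siSLC25A1 (log2 fold change 0.77, adjusted p 9.27e-05), and LTBP2 at 33.7, 32.4 and 36.9 and 70.6, 71.3 and 72.8 CPM (1.06, SE 0.08, adjusted p 2.96e-08). SMURF2, a ubiquitin ligase of the receptors, was also above all 3 groups (0.27, chosen after its value was seen). Among inhibitors, SMAD6, the inhibitory SMAD of BMP signalling, went from 11.6, 9.43 and 12.7 to 4.71, 5.43 and 5.06 CPM (-1.15, adjusted p 2.29e-07), with 4.95 CPM in siACLY, and BAMBI, a decoy receptor, from 6.17, 4.72 and 5.04 to 2.96, 2.09 and 2.86 CPM (-1.0, adjusted p 4.55e-05; smallest difference -0.82, adjusted joint p 0.00337).

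Adhesion and matrix genes were called in both directions, where 10.3% of all tested genes were called higher and 9.27% lower. Among 16 integrins 5 were higher and 2 lower. ITGB4, the partner of ITGA6 in hemidesmosomes, fell from 581, 619 and 623 to 424, 469.7 and 459.7 CPM (log2 fold change -0.43, SE 0.04, adjusted p 1.61e-08), while ITGA6 rose from 38.6, 44.3 and 41.7 to 53.6, 53.4 and 48.8 CPM (0.32) and ITGB1, the most widely shared beta chain, was above all 3 groups (0.19, adjusted joint p 9.78e-04, chosen after its value was seen). Among 26 collagens and laminins 6 were higher and 8 lower; COL17A1, the hemidesmosomal collagen, rose from 74.8, 71.6 and 67.8 to 123, 129.9 and 123 CPM (0.81) and COL7A1, of anchoring fibrils, fell from 12.2, 11.5 and 12.3 to 6.52, 6.12 and 8.12 CPM (-0.80). Metalloproteases and their inhibitors had 5 of 26 higher and 8 lower, ADAMTS4 furthest up, and 5 lower without siSLC25A1 replicate 2 or any siControl library. Cadherins, semaphorins and ephrins had 4 of 45 higher (1 without siControl replicate 2) and 10 lower, with SEMA3B, a secreted guidance factor, falling from 13.8, 13.4 and 13.9 to 5.44, 6.76 and 6.38 CPM (-1.15). YAP and TEAD targets were called 7 times higher and 6 times lower of 24; CCN1 rose from 104, 83.7 and 91.6 to 145, 131 and 126 CPM (0.52) and AJUBA had a log2 fold change of -0.50.

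Clock genes changed in 8 of 18 cases upward and 2 downward, beside 10.3% and 9.27% of all tested genes. BMAL2 is described above. DBP, an output gene that CLOCK and BMAL1 drive, fell from 21.4, 21.2 and 20.8 to 9.7, 10.1 and 12.4 CPM (log2 fold change -0.99, SE 0.10, adjusted p 2.9e-08), with 12.7, 9.97 and 11.8 CPM in siACLY and 32.8, 33.8 and 40.4 CPM in siACO1. BHLHE41, a repressor of CLOCK and BMAL1, rose from 10.5, 11 and 11.2 to 18.6, 19.7 and 18.2 CPM (0.79, adjusted p 1.22e-08), and BMAL1 rose by 0.33 (chosen after its value was seen). TXNIP, an arrestin-domain protein that restrains glucose uptake and is induced by MondoA and ChREBP, rose from 14.4, 12.4 and 11.5 to 34.8, 33.9 and 37 CPM (1.46, SE 0.08, adjusted p 1.22e-14), with 35, 35.3 and 36.9 CPM in siACLY and 23.9, 24.4 and 27.7 CPM in siACO1.

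Histone acetylation draws on the same acetyl-CoA. Histone acetyltransferases were called in 1 of 21 cases, KAT2A (-0.11, adjusted p 0.0425), which lost its call without any siControl, siSLC25A1 or siACLY library (-0.13 to -0.10). Deacetylases and sirtuins were called lower in 5 of 17 cases and higher in 0, and in 2 or 3 cases without siControl replicate 3 or siSLC25A1 replicate 1 or 3. HDAC1 was at 389.8, 381 and 381 CPM in siControl and 333, 319 and 329.6 CPM in siSLC25A1 (log2 fold change -0.23, adjusted p 2.93e-05), and lower in siACLY (311 CPM). Replication-dependent histone genes, whose transcripts normally lack a poly(A) tail and were here selected by it, had 0 of 31 tested members called higher and 6 lower, beside 10.3% and 9.27% of all tested genes. Their median was -0.61, between -0.61 and -0.32 when 1 library was left out and nearest to 0 without siControl replicate 1, while the medians were 0.56 in siACLY and 0.97 in siACO1. The low-count filter took all 4 groups together, so a member could be tested through its counts in siACLY or siACO1 alone. Of 69 members 31 were tested, and how many entered in that way was not examined. The list's median and joint calls are limited by this. With 0.5 CPM added to each level, the list's mean log2 level relative to siControl was smaller in size. It was -0.23, -0.34 and -0.38 in the siSLC25A1 libraries, 0.20 to 0.29 in siACLY and 0.63 to 0.69 in siACO1. H2AC6 was at 2.89, 3.74 and 3.48 CPM in siSLC25A1, 6.08, 5.99 and 6.97 CPM in siControl, 9.35, 11.3 and 14.4 CPM in siACLY and 15.7, 14 and 16.5 CPM in siACO1 (smallest difference -0.91, adjusted joint p 3.85e-04). By the joint test 4 members of the list were below all 3 groups and 0 above, beside 1.38% and 2.03% of all tested genes. Without siSLC25A1 replicate 2 the joint test placed 2 members below. The Polycomb genes had 3 of 29 higher and 6 lower, with CBX2 at 47.3, 48.8 and 50.1 CPM in siControl and 36, 36.9 and 36.5 CPM in siSLC25A1 (-0.42).

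**Figure D5:**
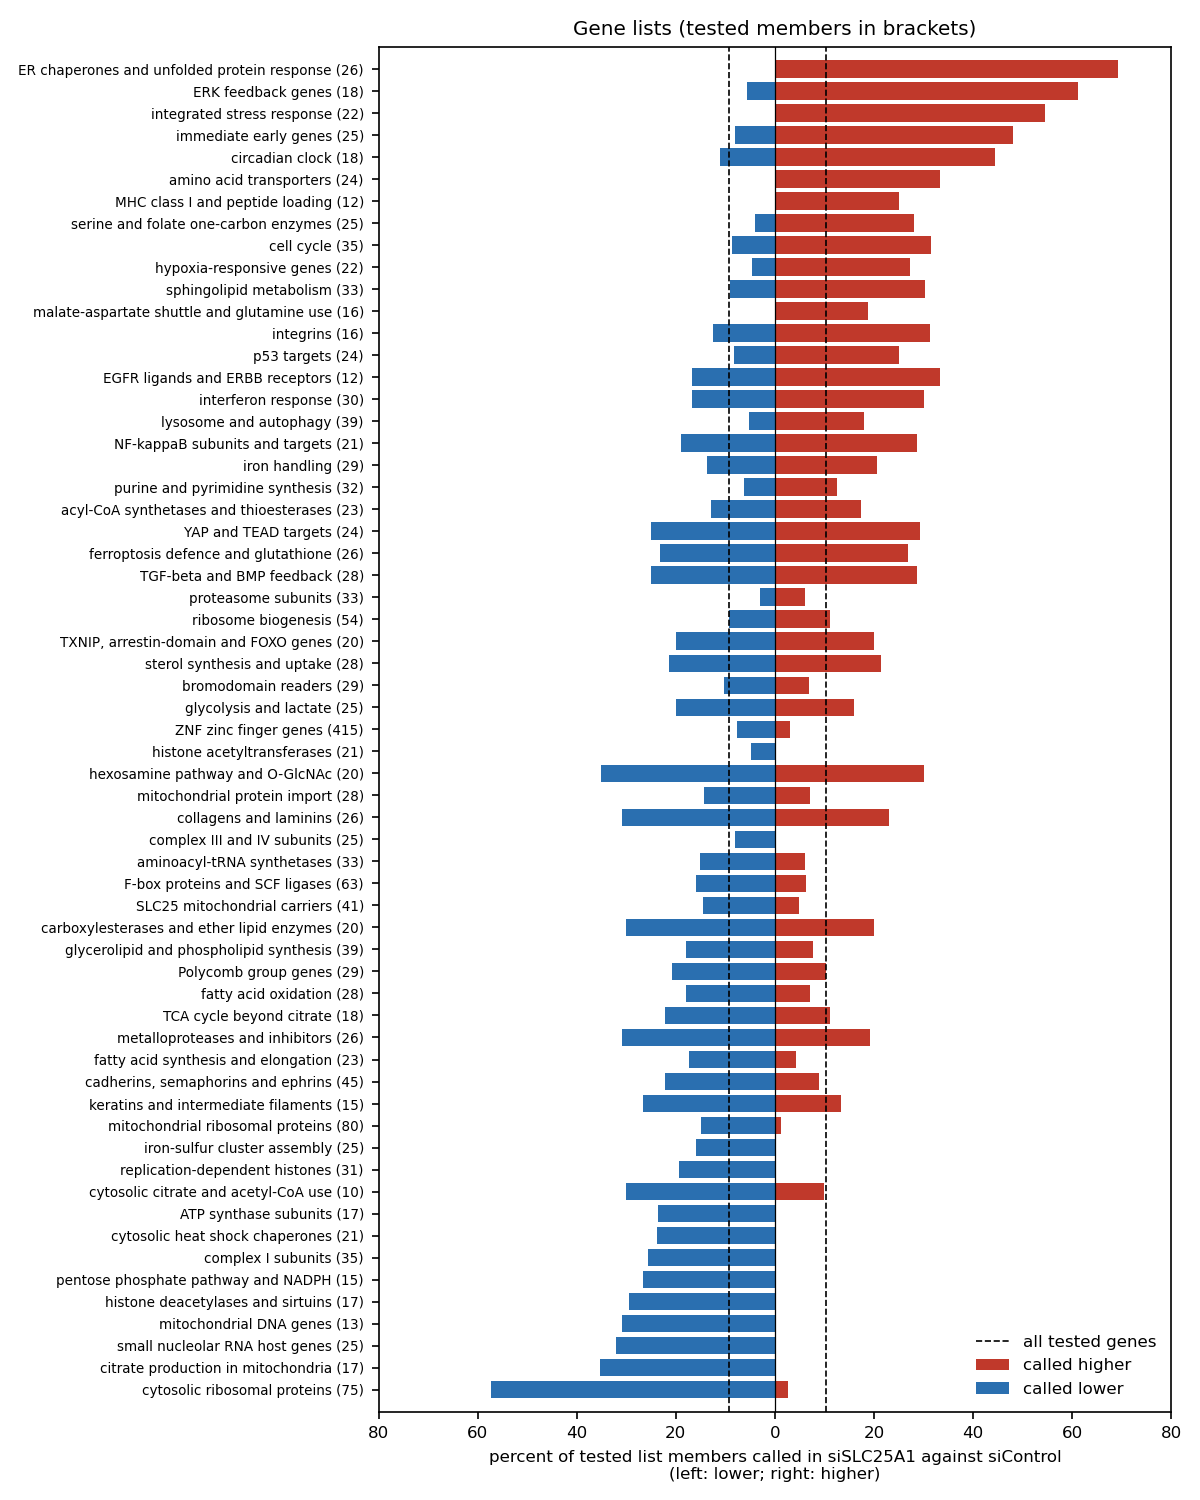
Share of tested members called higher (red, right) and lower (blue, left) in siSLC25A1 against siControl for each gene list shown, with the tested members in brackets and the shares over all tested genes (10.3% and 9.27%) as dashed lines. ER chaperones and ERK feedback genes reach furthest to the right and cytosolic ribosomal proteins and citrate production furthest to the left in net share.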

How the data were processed

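Polyadenylated RNA of 12 MiaPaCa-2 libraries was sequenced after DNase treatment and random-hexamer cDNA synthesis, per the labels' protocols. The authors deposited 1 table of raw counts per gene for all libraries. The submitters' processing notes name CASAVA, FastQC, Trim Galore, STAR 2.7.0e and DESeq2, and the builds GRCh38 and GRCm39. The counting tool, annotation release and use of strand are not given in the sources used here. Of 70116 gene IDs, 32582 had counts and 89.4% matched a symbol.

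From these counts, edgeR 4.0.16 (R 4.3.3) fitted robust quasi-likelihood models to all 12 libraries, with 1 mean per group, trimmed mean of M values scaling, its default low-count filter (16197 genes left) and Benjamini-Hochberg adjustment over all tested genes. There were 8 residual degrees of freedom, and genes with an adjusted p under 0.05 were called. SE is the log2 fold change divided by the square root of F. The joint test took the largest p of siSLC25A1 against siControl, siACLY and siACO1 where all 3 differences had the same sign.

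Named genes were the targets; the 12 largest rises and falls with a mean of at least 5 CPM; the 6 largest with at least 100 CPM; the 10 furthest above and below all other groups; up to 3 called members per list with the largest changes; and all members of the 2 citrate lists; some of these are not reported here. The members and lists were chosen with earlier results of these data known, so list counts and medians are described, with the shares of all tested genes in the same passage, and are not tested. The replicate numbers did not pair the samples. On simulated counts for siSLC25A1 against siControl (15795 genes), edgeR recovered 77% of 100 genes changed 2-fold and 61.2% of 98 changed 1.41-fold. It called 5 of 15597 unchanged genes. For the joint test edgeR recovered 73% and 57.1% and DESeq2 72% and 56.1%, and both called 0 of the unchanged genes. The simulation changed far fewer genes than were called in the data and took its dispersions from the same fit. Its shares therefore need not hold for the data. How often the joint test calls genes that differ from some but not all of the other groups was not tested. Alternatives were other scalings, other low-count filters, DESeq2 1.42.0, a replicate block, the 2 groups alone, leaving out each library, a fold minimum and, added after the data were seen, offsets for length and GC.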

Additional observations from a re-analysis of the deposited data

How the results depend on the processing

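The count of called genes stayed within 1.5 times of 3173, and the joint count within 1.5 times of 551, under every alternative but a fold minimum of 2, which left 170 and 19. Leaving out 1 library gave 2319 to 4131 called genes (1229 to 2161 higher, 1090 to 1970 lower), 383 to 756 in the joint test (234 to 479 above, 149 to 277 below) and -3.59 to -3.44 for SLC25A1; the highest counts were those without siACO1 replicate 3. With library totals in place of scaling factors, 3153 genes were called (1690 higher, 1463 lower) and 513 in the joint test (247 above, 266 below). Same-numbered libraries of siControl and siSLC25A1 did not deviate together (r of 0.0019 to 0.022). Over same-numbered pairs from all 4 groups r ran from -0.034 to 0.067. With the replicate number as a block 3270 genes were called (1699 higher, 1571 lower), 578 in the joint test (342 above, 236 below), with SLC25A1 at -3.51. Offsets for length and GC, chosen after seeing the data, gave 3335 and 619 genes. Of 5868 values of named genes under the alternatives, 5574 kept their side of the threshold, 291 lost it, 3 gained it and 0 reversed; the cause was not tested. With 3 libraries a group and a median call of 0.28 on the log2 scale, many calls lie near the threshold.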

Other observations

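The lists not described above are read against 10.3% of all tested genes called higher and 9.27% lower. Of 22 genes of the integrated stress response, 12 were called higher and 0 lower in siSLC25A1 (median log2 fold change 0.25), with medians of 0.42 in siACLY and -0.45 in siACO1 against the same controls. Cell cycle genes had 11 of 35 higher and 3 lower (median 0.11; -0.24 in siACLY and -0.10 in siACO1). The list's mean level, as log2(CPM + 0.5) relative to siControl, was 0.18 in siSLC25A1 replicate 1, against 0.04 and 0.02 in replicates 2 and 3. Without replicate 1 of siSLC25A1, 5 cell cycle genes were called higher and 6 lower, with a median of 0.04, and 6 were higher without siControl replicate 1 or 3. Genes responsive to hypoxia had 6 of 22 higher and 1 lower, lysosome and autophagy genes 7 of 39 higher and 2 lower (0 to 4 lower when 1 library was left out), and MHC class I and peptide loading genes 3 of 12 higher and 0 lower. The ZNF zinc finger genes had 13 of 415 higher and 32 lower (5 to 17 and 16 to 39 when 1 library was left out), in the full fit both shares under those of all tested genes. F-box genes had 4 of 63 higher and 10 lower (7 higher without siACO1 replicate 3), FBXO2 and FBXO44 among the latter.

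Of 479 processed pseudogenes tested, 5 were called higher and 36 lower, with a median log2 fold change of -0.16. Reads of their parent genes can be counted there, and how reads that match several genes were treated is not given in the sources used here.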
